A study of Mus musculus with 12 samples.

Results

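The 37 interferon-stimulated genes described here are genes that cells switch on after type I interferon, and they were followed in primary mouse microglia, the macrophages of the brain. They were taken from a list of gene symbols, each matched to its Ensembl identifier in the expression table (where a symbol had several identifiers, the one with the highest mean was kept), and all 37 were found among its 48623 genes. RNA-seq libraries came from microglia of C57BL/6J background that carried the R47H knock-in allele of *Trem2* in both copies (KI) or were wild type (WT). The 3 WT cultures have the names T13, T33 and T43 and the 3 KI cultures T15, T22 and T32, and under each name there is 1 library of untreated cells and 1 library of cells kept for 48 h with 20 ng/ml of the cytokine IL-4. That makes 12 libraries in 4 groups of 3. TREM2 is a lipid-sensing receptor of microglia, and in this KI line the transcript itself is also reduced, so that the allele is a model of low *Trem2* as well as of the amino acid change. The cells were grown from cortex and hippocampus of newborn pups as mixed glia and were then separated from the astrocyte layer with mild trypsin. The study gives WT littermates as the controls of the RNA-seq, and its methods describe pups of this line as kept in separate cultures. Values are TPM, transcript abundances divided by length and scaled to a sum of 1000000 per library. They keep no read counts, so the depth of the single libraries is not known here and precision is given by the spread between cultures.

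Type I interferons, a family around interferon beta and the interferon alphas, bind the receptor IFNAR1/IFNAR2, whose kinases JAK1 and TYK2 phosphorylate STAT proteins. These join IRF9 as the complex ISGF3, which binds the interferon-stimulated response element (ISRE) in the promoters of its target genes. The products block steps of viral growth (IFIT, OAS, MX, viperin, tetherin, IFITM), sense foreign nucleic acid (RIG-I, MDA5, ZBP1) or feed back on the pathway (IRF7, USP18). Microglia keep a low level of this programme at rest and raise it in infection, ageing and amyloid disease.

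The sequence that names the family was looked for in the RefSeq promoters of GRCm38.p6, which span 250 bases before to 50 bases after each gene start. The core of the ISRE was searched as GAAANNGAAA on both strands. It was held by 15 of the 27 members that had a promoter entry (55.6%), against 3.99% of all 27025 genes with an entry. The gamma-activated sequence (GAS, searched as TTCNNNGAA, which reads alike on both strands and can overlap the ISRE core) was held by 7 of the 27 (25.9%), against 9.55% of all genes. A match is a description of these letters only. No promoter entry was used for *Mx1*, *Mx2*, *Oas1b*, *Oas2*, *Usp18*, *Rtp4*, *Parp14*, *Zbp1*, *Ifi204* and *Ifi27l2a*. The windows below, on the strand of each gene with every match of the core or its reverse complement in capitals, belong to members with a large spread between WT cultures (*Isg15*, *Ifit1*, *Ifit3*) and to members that lay lower in KI (*Bst2*, *Oas1a*), chosen after their values were seen.
Isg15, chr4:156200860-156200911, minus strand: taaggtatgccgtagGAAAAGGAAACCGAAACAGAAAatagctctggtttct
Ifit1, chr19:34640770-34640828, plus strand: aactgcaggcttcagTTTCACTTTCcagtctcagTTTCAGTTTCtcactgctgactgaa
Ifit3, chr19:34583358-34583431, plus strand: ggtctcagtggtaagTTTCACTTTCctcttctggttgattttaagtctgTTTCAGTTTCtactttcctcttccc
Bst2, chr8:71537572-71537617, minus strand: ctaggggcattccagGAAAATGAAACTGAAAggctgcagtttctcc
Oas1a, chr5:120907515-120907560, minus strand: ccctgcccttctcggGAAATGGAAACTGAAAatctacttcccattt
*Isg15* held 3 overlapping matches and the others 2 each. The window of *Ifit3* recurs letter for letter before *Ifit3b* (chr19:34607754-34607827), and that of *Oas1a* before *Oas1g* (chr5:120887601-120887646). These pairs are close copies in their transcripts too. Of the 31-base words in the *Ifit3* transcript, 61.8% also occur in *Ifit3b*, and of those in *Oas1a* 68.7% occur in *Oas1g*, so the split of reads within each pair is uncertain.

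The libraries were first checked against their labels. *Trem2* lay between 1328 and 1886 TPM in untreated WT and between 325 and 769.9 TPM in untreated KI microglia, with a log2 difference over both treatments of -1.43 (SE, the standard error, 0.19, limma adjusted p = 0.00763; p-values of limma are from its F-test unless another test is named). *Retnla*, a standard IL-4 target, stood at 0 in every library without IL-4 and at 96.06 TPM or more in every library with it. The markers of microglia were present throughout, and 17 of 18 passed the limit of expression used for testing (a mean log2(TPM + 1) above 1.5). Their summed level was 28360 to 31660 TPM in untreated WT libraries and 12620 to 25600 TPM in untreated KI libraries. Of these markers 5 were past the threshold as lower in KI (*Csf1r*, *Aif1*, *Itgam*, *C1qb* and *Fcrls*), of which 2 stayed past it with culture as a replicate block (*Aif1* and *C1qb*), and the median log2 difference of the list was -0.65. The 10 astrocyte markers summed to 167 to 693 TPM in untreated WT, with T13 the highest, and to 221 to 4803 TPM in untreated KI, with T15 the highest; none was past the threshold. Of 10 mural cell or fibroblast markers *Acta2*, *Tagln* and *Myl9* were past it as higher in KI, and the list summed to 175 to 413 TPM in untreated WT and 1281 to 1497 TPM in untreated KI. *Olig1* was the 1 of 10 oligodendrocyte-lineage markers past it, also higher in KI, but not with the block (limma adjusted p = 0.0634; the list summed to 69.5 to 137 TPM in untreated WT and 147 to 547 TPM in untreated KI). Of 6 endothelial, 5 neuronal and 8 blood leukocyte markers none was past it for genotype. *Cldn5*, *Tek*, *Syt1*, *Cd3e*, *Cd79a*, *S100a9*, *Ngp* and *Ly6g* were at or under 1 TPM in every library. Of the blood leukocyte markers 7 were so low, and 0 passed the limit of expression. The 8 summed to 15.3 TPM in untreated T13, 3.71 TPM in T33 and 3.09 TPM in T43. In untreated KI they summed to 0.115 to 9.57 TPM, and in T13 with IL-4 to 3.71 TPM. In bulk RNA a smaller number of microglia and less RNA of a gene per microglial cell cannot be told apart. With IL-4 the microglial markers *Cx3cr1* (lower) and *C1qa* (higher), the endothelial marker *Flt1* (higher) and the IL-4 target *Retnla* (higher) were past the threshold, and with the block *C1qb*, *C1qc* and *Fcrls* were past it too, as higher. The part of the mix of cells in the results that follow was not tested.

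WT culture T13 stood apart from the other cultures in the interferon-stimulated genes, and with it the spread within WT was wider than the difference between the genotypes. Of the 37 members 30 passed the limit of expression, whereas *Oas1b*, *Oas2*, *Oas3*, *Oasl1*, *Mx1*, *Mx2* and *Ifi44* lay under it. Averaged over the 30 members, log2(TPM + 1) was 5.21 in untreated T13, 3.94 in T33 and 4.33 in T43. The corresponding levels of the untreated KI cultures were 4.31 in T15, 4.10 in T22 and 4.08 in T32. All 3 KI cultures therefore lay between T33 and T43, and T13 lay above everything else. The order within WT was the same after IL-4, with 5.30 in T13, 3.82 in T33 and 4.44 in T43, but T15 at 4.58 then lay above T43, with T22 at 4.37 and T32 at 3.84. Group means were 4.50 ± 0.65 for untreated WT and 4.17 ± 0.12 for untreated KI (SD, n = 3 each), and 4.52 ± 0.75 for WT and 4.26 ± 0.38 for KI with IL-4, and the groups overlapped in both treatments.

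**Figure D1:**
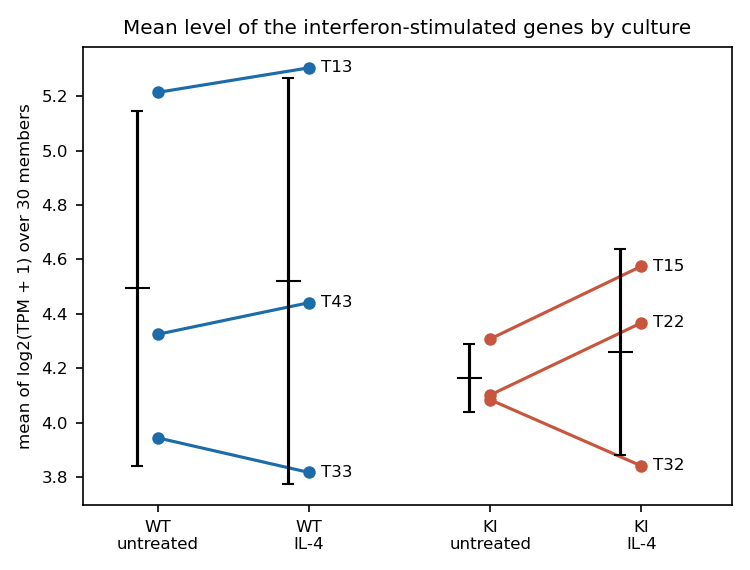
Mean level of the 30 expressed interferon-stimulated genes (y axis, mean of log2(TPM + 1)) in each culture, with lines joining the untreated and the IL-4 library of a culture and black bars for the group mean ± SD (n = 3). T13 lies at 5.21 and 5.30, above all other libraries, which lie between 3.82 and 4.58.

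The same culture led in nearly every member. T13 was the highest WT culture in both treatments for 26 of the 30 members (86.7%), where 20.5% of all 11204 genes tested had T13 in that place. The remaining 4 were *Irf9*, *Herc6*, *Isg20* and *Slfn2*. T33 was the lowest WT culture in both treatments for 18 members (60%), against 12.1% of all genes. The KI cultures showed less order, since T15 was the highest in both treatments for 8 of 30 members (26.7%, against 23.5% of all genes) and T32 the lowest for 9 (30%, against 13.3%). As both libraries of a pair carry the same culture name, the second library of T13 was taken to repeat the culture and not to be a second observation of its genotype. In untreated cells the range over the 3 WT cultures exceeded the difference between the genotype means for 24 of the 30 members (80.0%), near the share of all genes (73.4%). The median of this range was 1.23 on the log2 scale for the members and 0.72 for all genes, and over the 3 KI cultures it was 0.90 for the members and 0.92 for all genes. The median genotype difference of the members was 0.62 in size. Members whose promoter holds an ISRE core stood 1.26 higher in T13 than in the mean of T33 and T43 (median of 14 members, over both treatments), and those whose promoter entry lacks it 0.66 higher (median of 10), a difference that was not tested. The 14 include both near copies, *Ifit3* with *Ifit3b* and *Oas1a* with *Oas1g*. The median genotype difference was -0.45 with the core and -0.54 without it.

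**Figure D2:**
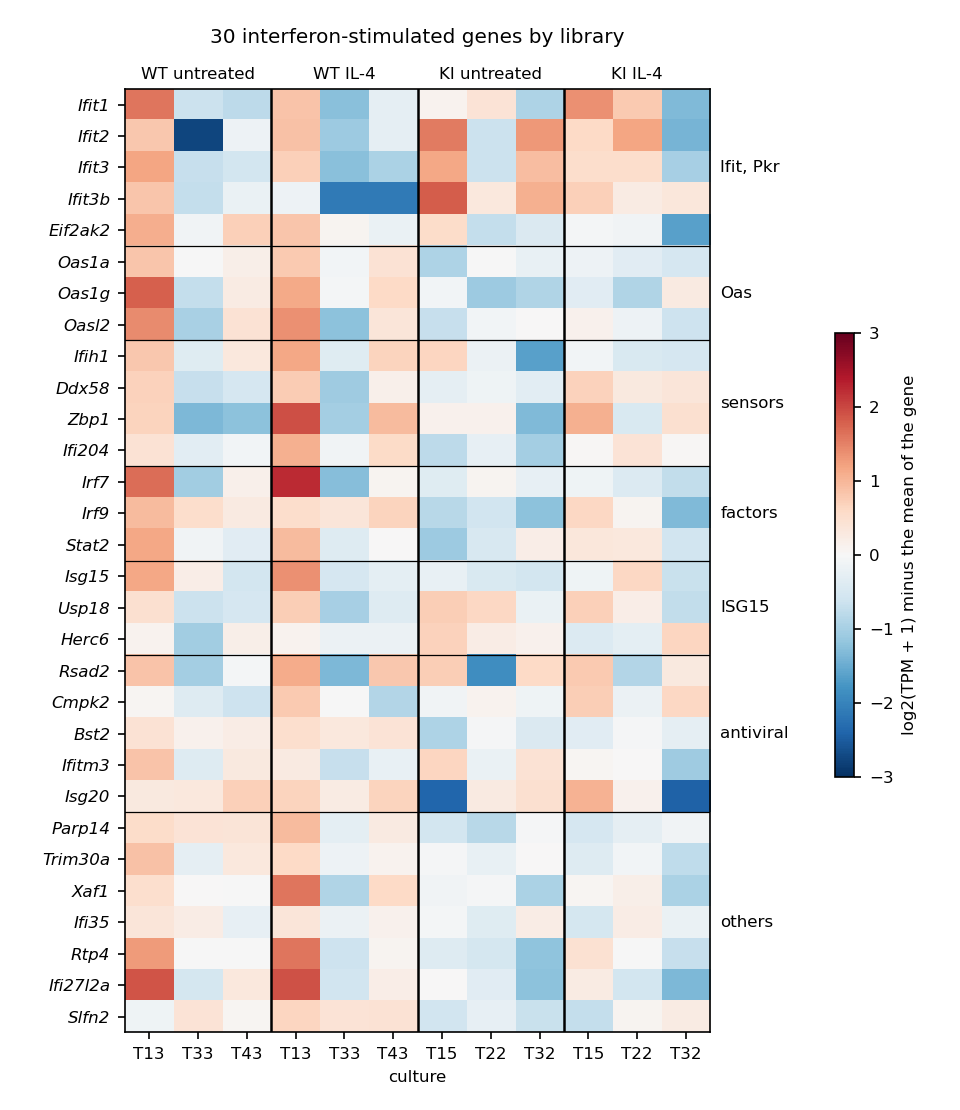
Log2(TPM + 1) of the 30 expressed members (rows, grouped by role) in the 12 libraries (columns, by group and culture), as the difference from the mean of each gene over all libraries. Red marks a library above the mean of the gene and blue one below it. Both T13 columns are red for most rows, with *Irf7*, *Oas1g* and *Ifi27l2a* among the strongest.

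*Irf7* and *Ifi27l2a* show this spread between cultures most plainly. *Irf7* encodes the transcription factor that amplifies interferon production, and it was at 103 TPM in untreated T13, 14.9 TPM in T33 and 35.2 TPM in T43. After IL-4 it was at 153, 12.35 and 33.3 TPM in the same order. The KI cultures T15, T22 and T32 were at 24.15, 33.3 and 26.45 TPM untreated and at 28.75, 23.6 and 18.6 TPM after IL-4. All KI values thus lay inside the WT range. *Ifi27l2a*, a small interferon-induced protein with 1 of the 3 highest means among the members, was at 476, 87.9 and 158.5 TPM in WT without IL-4 and at 485, 85.9 and 148 TPM after IL-4. In T15, T22 and T32 it was at 129.7, 100.1 and 53.8 TPM untreated and at 152, 86.75 and 49.8 TPM after IL-4. Here too T13 stood alone, and the other WT cultures overlapped with KI. Not every interferon-linked gene had T13 so high: in untreated cells the median member was 0.97 higher in T13 than in the mean of T33 and T43, as was the median of 9 type II interferon genes by 0.70, whereas 25 further interferon-responsive genes were higher by 0.32, 17 microglial markers by 0.01 and all genes by 0.09. The 9 expressed astrocyte markers were higher in untreated T13 by a median of 1.87, the 2 neuronal markers by 1.28, the 5 mural cell or fibroblast markers by 0.82 and the 7 oligodendrocyte-lineage markers by 0.64. After IL-4 the members were higher in T13 by 1.19, type II genes by 0.62, further responsive genes by 0.44, microglial markers by 0.38 and all genes by 0.05. Astrocyte markers were then higher by 1.58, neuronal and oligodendrocyte-lineage markers by 0.68 each, and mural cell or fibroblast markers were lower (-0.18). The summed blood leukocyte markers given above were also highest in untreated T13. The part of any of these cell types in the level of T13 was not tested.

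The first comparison asked whether microglia with the KI allele differ from WT in these genes. No member passed the threshold of an adjusted p of 0.05 for genotype (limma's F-test of genotype and interaction, Benjamini-Hochberg over all 11204 genes), where 0.357% of all genes were called lower and 1.29% higher in KI. At an unadjusted p under 0.05 there were 5 members of 30 (*Bst2*, *Irf9*, *Slfn2*, *Ifit3b* and *Oas1a*), against 16.1% of all genes. Without a limit of expression, 0 of 37 members and 0.0538% of 29745 genes were called. The difference averaged over both treatments was negative, that is lower in KI, for 21 of 30 members, against 4130 of 11204 genes, and its median was -0.48 on the log2 scale where that of all genes was 0.13. Relative to all genes the median member was thus at -0.61. Without T13 the median was -0.06 (all genes 0.14) with 16 of 30 members negative. T13 had been picked as the highest WT culture in these same genes, a choice that by itself moves the difference upward. Without T33 the median was -0.72, and without T43 it was -0.57. In the same comparison the median of the microglial markers was -0.65, and -0.57 without T13.

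**Figure D3:**
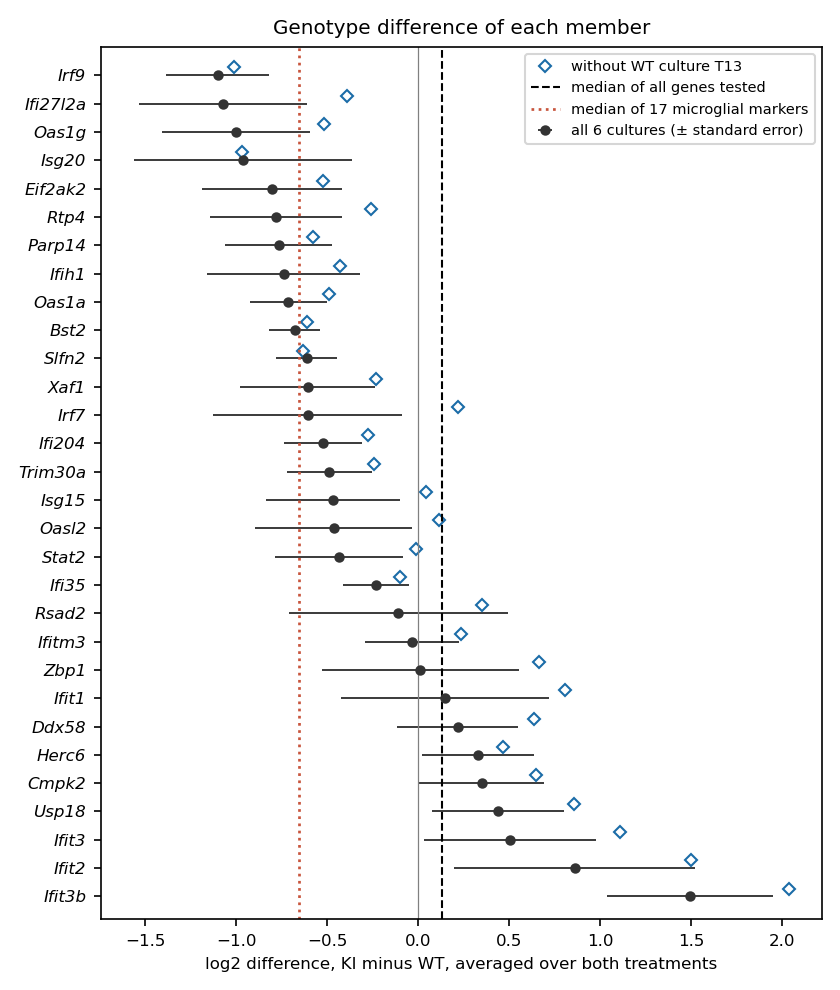
Log2 difference between KI and WT averaged over both treatments (x axis) for each of the 30 expressed members (y axis), with filled points and standard errors for all 6 cultures and open diamonds for the fit without WT culture T13. The dashed line is the median of all 11204 genes (0.13) and the dotted line that of 17 microglial markers (-0.65). Leaving out T13 moved *Irf7*, *Isg15*, *Oasl2*, *Rsad2* and *Ifitm3* from below 0 to above it.

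*Irf9* had the most negative genotype difference of the 30 members. This DNA-binding subunit of ISGF3 (chr14:55603571-55610030, GRCm38), was at 57.0, 42.8 and 35.5 TPM in WT cultures without IL-4 (T13, T33, T43, the order used throughout) and at 15.9, 19.1 and 11.8 TPM in KI cultures without IL-4 (T15, T22, T32). After IL-4 the WT values were 42.5, 37.9 and 46.9 TPM and the KI values 45.1, 30.8 and 11.0 TPM. Untreated KI cultures all lay under the WT cultures, but after IL-4 the groups overlapped through T15. Its log2 difference was -1.10 (SE 0.28, limma adjusted p = 0.106), and -1.01 without T13 (limma adjusted p = 0.281). In limma's test of the average difference alone, which does not take in the interaction, it was past the threshold (adjusted p = 0.0408), as was *Bst2*. That test called 2 of 30 members lower and 0 higher, against 1.19% of all genes lower and 3.95% higher. *Stat2*, the partner of IRF9 in the complex, was at 34.8, 13.8 and 11.5 TPM in untreated WT and at 6.48, 10.4 and 17.2 TPM in untreated KI, with overlapping groups and a difference of -0.43 that shrank to -0.01 without T13.

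Of the antiviral effectors, *Bst2* was the member with the highest mean and the smallest p for genotype. It encodes tetherin, which holds budding virus at the cell surface (chr8:71534255-71537456, GRCm38). Untreated WT cultures T13, T33 and T43 were at 377, 304 and 323 TPM (335 ± 38.1, SD, n = 3), and KI cultures T15, T22 and T32 at 145, 270.2 and 204 TPM (207 ± 62.6, SD, n = 3). After IL-4 WT was at 394, 346 and 368 TPM and KI at 217, 272 and 231 TPM. All KI values lay under all WT values in both treatments, and T13 was close to the other WT cultures. The log2 difference was -0.68 (SE 0.14, limma adjusted p = 0.0568) and it was -0.61 without T13 (limma adjusted p = 0.172). Without KI culture T22 it was past the threshold (limma adjusted p = 0.0290). *Ifitm3*, which blocks viral entry at the endosome, is as abundant but had no such split, with 433, 184 and 295.5 TPM in untreated WT and 379, 210.0 and 326 TPM in untreated KI. After IL-4 it was at 289, 148 and 206 TPM in WT and 249, 244 and 114 TPM in KI, and its difference was -0.03 (SE 0.26). *Rsad2* (viperin), *Cmpk2* and the nuclease gene *Isg20* were at means of 3.39 to 6.31 TPM over the libraries, with differences of -0.11, 0.35 and -0.96, or 0.35, 0.65 and -0.97 without T13, and none past the threshold. *Mx1*, a dynamin-like inhibitor of influenza virus, was under the limit of expression at 7.30 TPM in untreated T13 and at or under 3.96 TPM in every other library, and *Mx2* at or under 5.51 TPM in all.

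**Figure D4:**
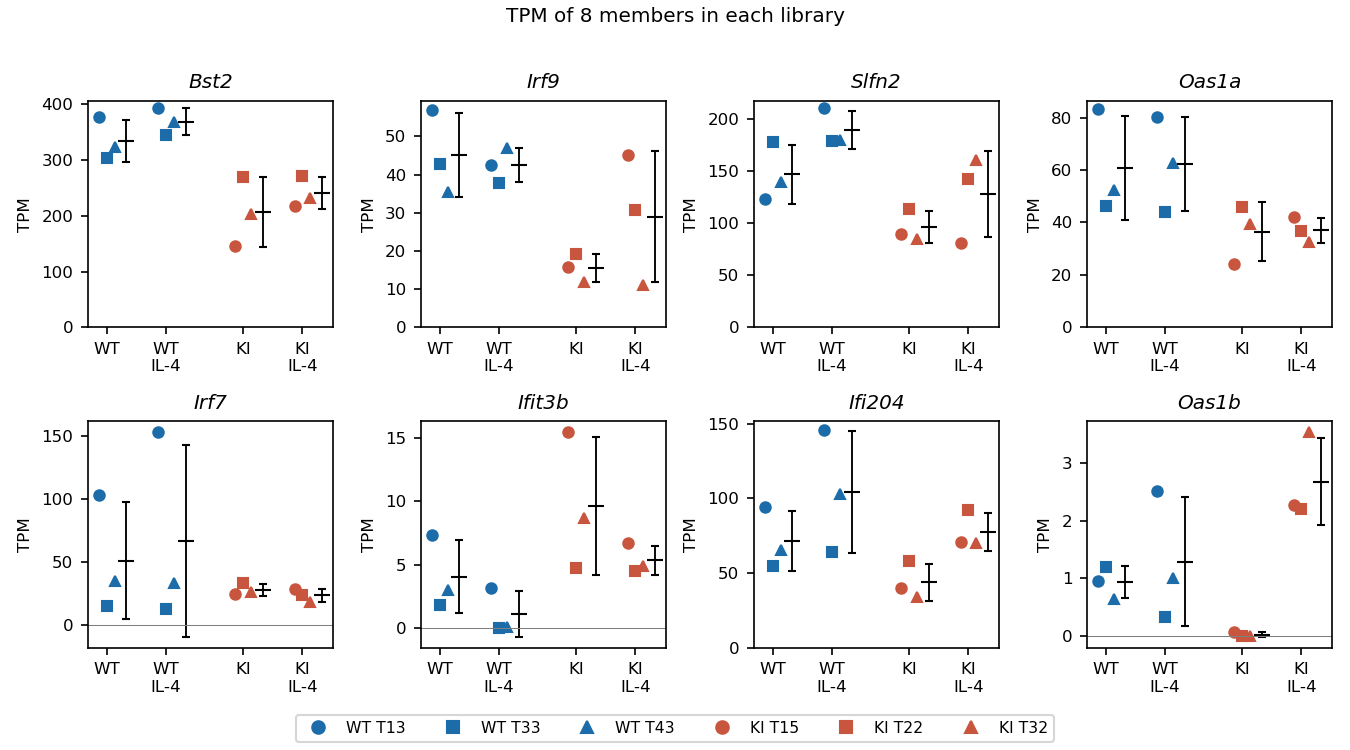
TPM (y axis, linear) of 8 members in each library, in the groups WT, WT with IL-4, KI and KI with IL-4, with 1 point per culture and black bars for the mean ± SD (n = 3). *Bst2* and *Oas1a* have all KI points under all WT points of the same treatment, *Irf7* has T13 alone at the top, and *Oas1b* lies at or under 0.084 TPM in untreated KI.

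*Slfn2* and *Oas1a* also had no overlap between the genotypes in either treatment. *Slfn2*, a growth regulator of immune cells (chr11:83065112-83070678, GRCm38), was at 123, 178 and 140.1 TPM in WT without IL-4 and at 90.04, 114 and 84.6 TPM in KI without IL-4. After IL-4 WT was at 211, 179 and 180.2 TPM and KI at 81.2, 142 and 160.4 TPM. T13 was the lowest WT culture here when untreated, unlike in most members, and the difference of -0.61 (SE 0.17, limma adjusted p = 0.155) was -0.63 without T13. *Oas1a* makes the 2-5A that activates RNase L, with 83.35, 46.3 and 52.5 TPM in untreated WT and 24.1, 46.0 and 39.5 TPM in untreated KI. After IL-4 it was at 80.1, 44.1 and 62.8 TPM in WT and 41.95, 36.6 and 32.4 TPM in KI. The groups were apart by less than 1 TPM in untreated cells (T22 against T33), and the difference of -0.71 (SE 0.21, limma adjusted p = 0.191) was -0.49 without T13. Over all members, the 3 untreated KI cultures lay under the 3 WT cultures in 7 of 30 (*Oas1a*, *Irf9*, *Bst2*, *Parp14*, *Xaf1*, *Rtp4* and *Slfn2*), against 4.55% of all genes, and over them in 0, against 13.6% of all genes. After IL-4 they lay under in 3 (*Oas1a*, *Bst2* and *Slfn2*), against 5.79%, and over in 1 (*Ifit3b*), against 12.7%. The same 3 genes lay under WT in both treatments, against 1.23% of all genes. For comparison, the sum over microglial markers was also lower in every untreated KI culture (12620 to 25600 TPM) than in every untreated WT culture (28360 to 31660 TPM), and the part of this in the lower levels of members was not tested.

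The differences of the Ifit genes averaged over both treatments were positive, as were those of most genes tested, and none of them passed the threshold. *Ifit1*, *Ifit2*, *Ifit3* and *Ifit3b*, which bind viral RNA ends and block its translation and lie in a cluster on chromosome 19, had differences of 0.15, 0.86, 0.51 and 1.49, and of 0.81, 1.497, 1.11 and 2.04 without T13. In untreated cells that of *Ifit1* was -0.20. *Ifit3b* was at 7.34, 1.83 and 3.045 TPM in WT without IL-4 and at 15.5, 4.775 and 8.69 TPM in KI without IL-4. After IL-4 it was at 3.203, 0.0693 and 0.0721 TPM in WT and 6.68, 4.52 and 4.88 TPM in KI. The groups overlapped when untreated, through T13, and not after IL-4 (limma adjusted p = 0.187 with all cultures and 0.0655 without T13). Its near copy *Ifit3* overlapped in both treatments. *Eif2ak2*, the kinase PKR that stops translation on double-stranded RNA, was at -0.80, and at -0.52 without T13.

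In the OAS family the 3 expressed members had negative differences of -0.71 (*Oas1a*), -1.001 (*Oas1g*) and -0.46 (*Oasl2*), and without T13 they were -0.49, -0.52 and 0.12. Of the nucleic acid sensors, *Ifih1* (MDA5) and *Ifi204* were at -0.74 and -0.52, and *Ddx58* (RIG-I) and *Zbp1* at 0.22 and 0.01, and without T13 these were -0.43, -0.28, 0.64 and 0.67. In the ISG15 system *Isg15* itself, a ubiquitin-like modifier, was at 42.7, 21.5 and 12.4 TPM in untreated WT and 15.6, 13.1 and 12.4 TPM in untreated KI. Its difference of -0.47 turned to 0.05 without T13. *Usp18*, which removes ISG15 and restrains the receptor, and the ligase gene *Herc6* were at 0.44 and 0.33, and at 0.85 and 0.47 without T13. Among the other members *Parp14*, *Trim30a*, *Xaf1*, *Ifi35*, *Rtp4* and *Ifi27l2a* lay between -1.07 and -0.23, and without T13 between -0.58 and -0.10, with *Ifi27l2a* at -1.07 and then -0.39. None of these genes passed the threshold.

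The second comparison asked whether IL-4 alters the interferon-stimulated genes. With 48 h of IL-4 no member passed the threshold (limma's F-test of IL-4 and interaction), against 0.143% of all genes called lower and 0.75% higher, and without a limit of expression 0 of 37 members and 0.205% of genes were called. At an unadjusted p under 0.05 there was 1 member, *Ifi204*, against 7.27% of all genes. The median difference was 0.09 on the log2 scale (all genes 0.04), with 18 of 30 members positive (55.8% of all genes). By culture, the mean level of the members differed by 0.09, -0.13 and 0.12 in T13, T33 and T43 and by 0.27, 0.27 and -0.24 in T15, T22 and T32. Both signs occurred in each genotype.

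*Ifi204*, a cytosolic DNA sensor of the HIN-200 family (chr1:173747293-173766943, GRCm38), came nearest. It was at 94.0, 54.8 and 65.4 TPM in WT without IL-4 and at 146, 64.0 and 103 TPM after IL-4. In T15, T22 and T32 it was at 39.85, 57.7 and 33.6 TPM untreated and at 70.4, 92.2 and 70.3 TPM after IL-4. All 6 cultures had more of it with IL-4, by 0.22 to 0.65 in WT and by 0.67 to 1.04 in KI on the log2 scale. The difference was 0.67 (SE 0.21, limma adjusted p = 0.496), and with culture as a replicate block it was past the threshold (limma adjusted p = 0.0349), the 1 member so called against 1.79% of all genes called higher in that fit. Of its 31-base words 18.9% also occur in *Ifi211* and 34% in any other gene, so reads may be shared with that family. Only *Bst2* was also higher in all 6 cultures (by 0.06 to 0.19 in WT and 0.01 to 0.58 in KI), which makes 2 of 30 members against 5.73% of all genes. *Ifit3b* was lower in all 6 (with a difference of -1.03, limma adjusted p = 0.786), 1 of 30 against 2.51% of all genes. *Slfn2*, next by p, was higher in 5 of 6 cultures with a difference of 0.37 (SE 0.17, limma adjusted p = 0.867).

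The third comparison asked whether the response to IL-4 depended on the genotype. No member passed the threshold in limma's interaction test, nor did any of the 11204 genes (0%), and 0 of 30 members had an unadjusted p under 0.05 (3.19% of all genes). Without a limit of expression 0 of 37 members and 0.0134% of genes were called. The smallest unadjusted p among expressed members was that of *Irf9* (interaction of 0.74, SE 0.57, adjusted p = 1.00), followed by *Rtp4* (0.68, SE 0.73, adjusted p = 1.00) and *Ifit3b* (0.81, SE 0.91, adjusted p = 1.00). *Rtp4*, a Golgi chaperone and inhibitor of flaviviruses, was at 90.6, 36.2 and 36.5 TPM in untreated WT and 27.75, 25.2 and 15.35 TPM in untreated KI. With IL-4 the WT values were 113, 23.5 and 38.9 TPM and the KI values 50.3, 36.5 and 22.1 TPM. It was thus higher with IL-4 in all 3 KI cultures and in 2 of 3 WT cultures.

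*Oas1b*, a short OAS family member linked to flavivirus resistance (chr5:120812635-120824163, GRCm38), was under the limit of expression. It was at 0.962, 1.19 and 0.6525 TPM in WT without IL-4 and at 0.08355, 0.00844 and 0.00192 TPM in KI without IL-4. After IL-4 it was at 2.51, 0.341 and 1.015 TPM in WT and at 2.27, 2.21 and 3.535 TPM in KI. Untreated KI cultures all lay under WT, and after IL-4 the order was mixed, with all 3 KI cultures higher than before by 1.59 to 2.18 on the log2 scale. WT cultures differed from their untreated state by -0.71 to 0.84. In limma without a limit of expression the unadjusted p was 0.0117 for the interaction (adjusted p = 0.896), 0.00317 for IL-4 (adjusted p = 0.373) and 0.0347 for genotype (adjusted p = 0.561). At 3.535 TPM or less these values rest on little signal, and what counting error they carry is unknown. The other low members, *Oas2*, *Oas3*, *Oasl1* and *Ifi44*, had no library above 4.55 TPM and adjusted p-values of 0.761 or more for genotype in the same fit.

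The genes upstream of the members were taken from lists by role. Of 18 type I interferon genes, 15 (among them *Ifnb1*, *Ifna4* and *Ifne*) were listed at 0 in all 12 libraries and the other 3 were at or under 1 TPM, so no ligand was above 1 TPM in any culture, T13 included. *Ifng* was also listed at 0. The receptor was present: *Ifnar1* was at 63.6, 54.3 and 44.3 TPM in untreated WT and at 24.5, 50.15 and 79.2 TPM in untreated KI. After IL-4 it was at 64.4, 63.9 and 60.6 TPM in WT and at 52.6, 74.5 and 37.2 TPM in KI, so the groups overlapped (limma adjusted p = 0.874 for genotype). *Ifnar2* was at 281.5, 364 and 271 TPM in untreated WT and at 177, 240.0 and 224.5 TPM in untreated KI, and after IL-4 at 311, 296 and 297 TPM in WT and 240.5, 292 and 269 TPM in KI. Within each treatment all KI values lay under all WT values, by a narrow gap after IL-4, and the difference of -0.34 did not pass the threshold (limma adjusted p = 0.198).

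Of the 8 genes for the receptor and its signal, 1 was past the threshold for genotype. *Ptpn6*, the phosphatase SHP-1 that dampens JAK signals, fell by 0.81 on the log2 scale in KI (SE 0.16, limma adjusted p = 0.0407), with 252.7 to 304 TPM in untreated WT and 90.6 to 178 TPM in untreated KI. With culture as a replicate block it was not past it (limma adjusted p = 0.0819). *Socs1*, the feedback inhibitor that both interferon and IL-4 induce, was the 1 of 8 past the threshold for IL-4 and rose by 4.25 (SE 0.39, limma adjusted p = 8.9e-05), from 0 to 13.6 TPM in untreated libraries to 49.4 to 190 TPM with IL-4. Its difference with IL-4 was 5.73 in WT and 2.78 in KI, and untreated KI cultures (7.28 to 13.6 TPM) all lay above untreated WT cultures (0 to 4.66 TPM). The interaction of -2.95 had an unadjusted p of 0.00192 and did not pass the threshold (SE 0.77, limma adjusted p = 1.00). None of the 13 expressed genes of the pathways that induce interferon (of 14, with *Tlr9* under the limit) was past it in either comparison, and their median genotype difference was -0.31 and -0.40 without T13. In limma's test of the average difference *Irf5* was past it (-0.82, adjusted p = 0.0193).

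Genes of type II interferon and further interferon-responsive genes gave no call in the F-tests either. Of 14 genes for type II interferon and its targets 9 were expressed, with 5 negative genotype differences and a median of -0.03. Without T13 there were 2 negative differences and the median was 0.20. *Cxcl10*, a chemokine that both interferon types induce, was higher in KI in values, at 3.42 to 4.97 TPM in untreated WT and 9.87 to 60.9 TPM in untreated KI (2.18, SE 0.48, limma adjusted p = 0.0682, and 0.0213 in the test of the average difference). In that test *Ifngr1* was past the threshold too (-0.47, adjusted p = 0.0449). All 25 further interferon-responsive genes were expressed, with 22 negative genotype differences, a median of -0.41 and, without T13, 17 negative and a median of -0.26. The immunoproteasome genes *Psmb8* (-0.72, adjusted p = 0.0164) and *Psmb9* (-0.82, adjusted p = 0.0172) were past the threshold in limma's test of the average difference alone. With culture as a replicate block, *Ly6e*, *Lgals3bp* and *Tor3a* were past it as higher with IL-4, by 0.74, 0.47 and 0.89. These genes, other than *Ptpn6*, *Socs1*, *Ifnar1* and *Ifnar2*, were named after their values were seen.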

How the data were processed

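RNA of 12 libraries was measured by poly(A)-primed RNA-seq. Reads were cleaned with Trim Galore and assigned to ENSEMBL GRCm38 transcripts by Salmon, tximport gave sums per gene (versions are not given in the sources used here), and the authors deposited these as TPM. Counts were not used here, so the authors' likelihood-ratio test was replaced by a test on the log scale.

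Values were taken as log2(TPM + 1), a scale that shrinks the differences of genes with few TPM. The 11204 genes with a mean above 1.5 were tested over all 12 libraries in R 4.3.3 by limma 3.58.1, with lmFit and trended eBayes, in a model of genotype, IL-4 and their interaction. The Benjamini-Hochberg adjustment ran over all genes tested, and the threshold was 0.05. Members under the limit of expression were taken from the same fit without it (29745 genes above 0 in at least 1 library). Summaries used pandas 2.3.3, numpy 2.4.6 and Python 3.11.15.

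The untreated and the IL-4 library of a culture are paired through the culture name that their sample names share. Deviations from the group means correlated over all genes within a culture by 0.08 (T32) to 0.38 (T15). Those of T22 correlated less with each other (0.12) than with another culture (up to 0.19), whereas the other 5 cultures correlated best within themselves, so the pairing rests on the names. As a replicate block, culture was random for genotype (correlation 0.198) and fixed in the tests of IL-4 and interaction. Without the block, p-values measure the spread between the libraries of a group, each from another culture. For genotype this fit counts both libraries of a culture as if they were separate. With culture as a fixed block, p-values for IL-4 and interaction measure the spread within cultures.

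The members and gene lists were chosen with earlier results of these data known. All 37 members are accounted for. Values in each library are given for the 3 members with the smallest p in each test, the 3 with the highest mean TPM and *Oas1b*, and of the other lists for *Ifnar1* and *Ifnar2*; members of the other lists past a threshold are named, except where an item is not reported here. Values of *Irf7*, *Isg15*, *Stat2* and *Oas1a* were added after they were seen. Gene positions and the 31-base words come from GENCODE M21 (GRCm38), and promoters from RefSeq (GRCm38.p6).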

Additional observations from a re-analysis of the deposited data

How the results depend on the processing

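The number of members past the threshold for genotype, 0, was 1 with an expression limit of 3 (*Bst2*), 1 after quantile normalization (*Irf9*), 1 after median-ratio scaling (*Bst2*) and 2 in the test of the average difference (*Irf9* and *Bst2*). Leaving out each culture in turn gave 0 to 1 (*Bst2* without T22). For IL-4 the number, 0, was 1 with culture as a replicate block (*Ifi204*), and for the interaction it stayed at 0 in every setting. The replicate block gave 0 members for genotype. The interaction of *Irf9* ranged from 0.17 (only T22, T32, T33 and T43) to 1.12 (without T32). For *Ifit3b* the interaction was 2.26 and the difference with IL-4 -1.83 when 0.1 in place of 1 was added to TPM. Over the settings the adjusted p (limma) of *Bst2* for genotype ranged from 0.0172 to 0.296, that of *Irf9* from 0.0408 to 0.433 and that of *Ifi204* for IL-4 from 0.0349 to 1.00. The median genotype difference of the members kept its sign in every setting, between -0.72 (without T33) and -0.01 (only T22, T32, T33 and T43, a setting added after seeing the data because the sample names of T13 and T15 are spelled differently and their astrocyte markers are high). Quantile normalization gave -0.70 and median-ratio scaling -0.62, where the median of all genes moved from 0.13 to -0.06 and -0.01. Over all genes, 185 were called for genotype (78.4% higher in KI, or 61.6% with quantile normalization and 59.2% with median-ratio scaling), but 16 with no expression limit, 26 with no variance trend, 77 with the replicate block, 575 in the test of the average difference and 3 (without T33) to 192 (without T13) when cultures were left out, with 48 without T15, 79 without T32 and 16 without T43. For IL-4 100 were called, against 61, 50, 240 and 151 in the same settings and 46 (without T43) to 144 (without T15) when cultures were left out, with 56 without T13, 65 without T32 and 51 without T33. The cause of these shifts was not tested. With TPM only, counting error at low values, as for *Oas1b* and *Mx1*, cannot be given.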
